A study of Fragaria vesca with 18 samples.

Results

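Intronic antisense lncRNAs are long RNAs with no known protein product, assembled on the strand opposite a gene and lying within its introns. All 821 rows of the deposited count table whose ID begins with intronAS were taken, out of 61763 rows. The rest of the table holds 28588 annotated genes, 12662 rows of antisense lncRNAs that overlap exons (exonAS), 19247 rows of intergenic lncRNAs (LINC) and 445 rows of lncRNAs within introns on the sense strand (INTRONIC), as read from the prefixes. RNA came from fruit of the woodland strawberry Fragaria vesca, line Hawaii4, grown untreated in a greenhouse, and each biological replicate pooled fruit of several plants. The labels describe growth of a cultivated strawberry, Falandi, as well, but all 18 libraries are labelled Fragaria vesca. There are 6 groups of 3 replicates each. RNA depleted of polyadenylated molecules, here called poly(A)-depleted, was sequenced from immature fruit with green achenes, mature fruit with yellow achenes and mature fruit with brown achenes. RNA depleted of ribosomal RNA, here called rRNA-depleted, was sequenced at the same 3 stages. Achenes are the small dry fruits that carry the seeds on the fleshy receptacle, and the stages are called green, yellow and brown below.

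RNA polymerase II usually ends its transcripts with a poly(A) tail, and some long non-coding RNAs lack one. An rRNA-depleted library keeps molecules with and without a tail, while a poly(A)-depleted library keeps those without a tail and tailless fragments. An antisense RNA that lies wholly in an intron is complementary to the unspliced precursor of the gene on the other strand but not to its spliced mRNA. Antisense RNAs of plants are known to act on chromatin and on processing of the sense transcript at single loci, such as the locus of the flowering repressor FLC in Arabidopsis. No role is known here for any of the 821 rows, which have IDs but no names.

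Library totals were 9.49 to 20.4 M counts for poly(A)-depleted RNA and 47.2 to 76.9 M counts for rRNA-depleted RNA. After seeing the data, 3 libraries were singled out and are called those that stood apart. Brown replicate 3 had the highest intergenic share of its group in both kinds. That share was 5.44%, 10.98% and 16.8% in brown poly(A)-depleted replicates 1, 2 and 3, so replicate 1 lay as far below replicate 2 as replicate 3 lay above it, and 2.095%, 2.40% and 5.02% in the rRNA-depleted ones. Yellow replicate 2 of the rRNA-depleted set had 0.0662% of its counts on intronic antisense rows, against 0.110% and 0.109%. Values without these libraries, or without brown replicate 1, stand beside the results that they move. The files pair no gene ID with a name, so the tissue could not be checked against markers. They also give no position for genes, so the gene and the intron in which a row lies are not named. In bulk fruit, fewer cells of a type and less RNA per cell cannot be told apart.

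Most intronic antisense loci were short and had 1 exon. Exonic length ran between 214 and 6448 bases with a median of 802, and 219 of the 821 (26.7%) were under 500 bases. The medians of other lncRNA classes were 1414 bases for exonic antisense, 1042 for intronic sense and 1341 for intergenic rows, and 4.65%, 17.1% and 6.64% of those rows were under 500 bases. Splicing was assembled in 23 intronic antisense rows (2.80%), close in share to the exonic antisense rows (2.91%) and below the intronic sense rows (10.3%). The longest was intronAS.XLOC_010858, a single exon of 6448 bases on the minus strand of chromosome 3, 3753090 to 3759537. The most exons, 4, belonged to intronAS.XLOC_013745 on the plus strand of chromosome 4, 3600968 to 3603737. Coordinates are those of the authors' transcript file, counted from 1, and the sources used here do not give its genome build.

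The rows were spread over all 7 chromosomes, with 370 on the plus and 451 on the minus strand. Chromosome 3 carried the most, 156, which is 7.73 per 100 exonic antisense rows, and chromosome 2 carried 88, or 5.06 per 100, the lowest ratio of the 7. Another intronic antisense locus lay within 5 kb of 135 rows (16.4%). An exonic antisense locus lay within 5 kb of 505 rows (61.5%) and an intergenic one within 5 kb of 231 (28.1%).

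The label antisense could not be checked, since gene positions are not given. The span of 16 rows overlapped an exonic antisense locus, the nearest being on the opposite strand in 2. For the 5 rows that overlapped an intergenic locus it was so in 2. Intronic sense and intronic antisense are themselves labels of strand, so opposite strands between these 2 classes do not test the label. The span of 126 rows (15.3%) overlapped an intronic sense lncRNA, and in all 126 that lncRNA was on the opposite strand. These made 132 pairs with 130 of the 445 intronic sense rows (29.2% of that class), and the overlap covered a median of 91.8% of the intronic antisense span. The intronic antisense member had more counts in 60 of the 132 pairs, and no pair had at least 10 counts for both members in all 18 libraries. Both members of such a pair were seldom measured together. The longest row, intronAS.XLOC_010858, had 10920 counts over the 18 libraries, while its opposite partner INTRONIC.XLOC_008032 had 0. The same held for intronAS.XLOC_010173, with 1962 counts, and INTRONIC.XLOC_013091, with 0.

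Counts followed this overlap closely. Of 55 rows with at least 95% of their exonic bases inside exons of an opposite-strand lncRNA locus, 48 (87.3%) had 0 counts in every library and the highest total was 14. Among 691 rows with no such overlap, 1 had 0 counts and the median total was 639. The 54 rows covered by at least 50% but under 95% had a median total of 13.5, and the 15 covered by less than 50% had a median of 940. These counts leave out 6 loci that the table lists under 2 classes. Where the overlap reached 95%, 77 of 85 intronic sense rows (90.6%) and 3236 of 3742 intergenic rows (86.5%) were at 0 as well. Exonic antisense rows seldom overlapped so far, with 1 row at 95% or more, which had 2 counts, and 182 rows at 50% but under 95%, whose median total was 327.5. The sources used here do not name the counting program or its strand setting. A total of 0 in such a row therefore says nothing about whether the RNA was present, and the part of the counting step in this pattern was not tested.

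**Figure D1:**
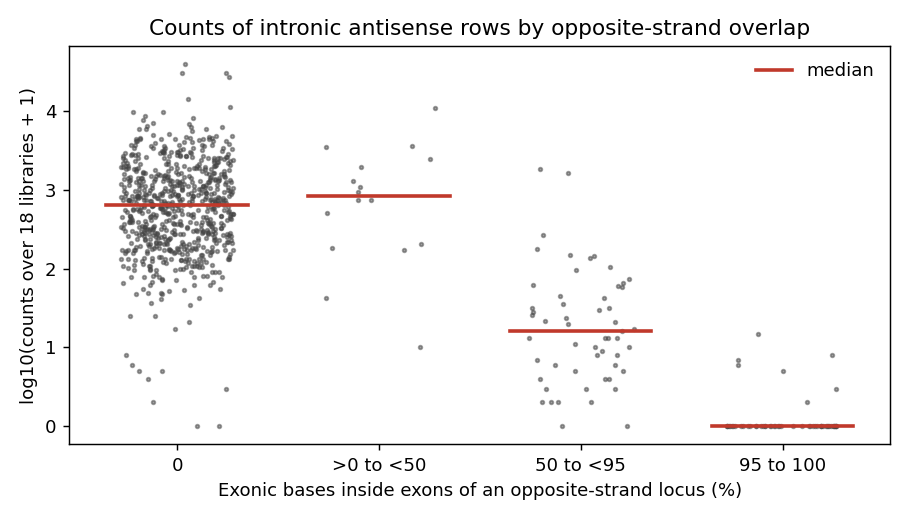
Counts of each of the 821 intronic antisense rows, as log10 of the total over 18 libraries plus 1, by the percentage of its exonic bases that lie inside exons of an lncRNA locus on the opposite strand. Each dot is a row and the red line is the median of the column, which is at 0 counts in the column of 95% or more.

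The 6 loci listed under 2 classes had other counts in each listing. The table gave intronAS.XLOC_032620 584 counts and exonAS.XLOC_032620 55932 counts for the same locus on chromosome 7. It gave intronAS.XLOC_020971 0 counts and exonAS.XLOC_020971 2633. The listings were near each other only for XLOC_022352, a locus of 2 exons on the minus strand of chromosome 5, 19406954 to 19419379, with 1147 counts as intronAS and 1270 as exonAS. Values of these loci under intronAS are uncertain for that reason.

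Detection of the class was partial. At least 10 counts in all 18 libraries were found for 219 of the 821 rows (26.7%), against 72.7% of exonic antisense, 22.2% of intronic sense and 29.9% of intergenic rows. Of the 821, 52 (6.33%) had 0 counts in every library and 108 had under 10 in every library. Group by group, 437, 349 and 323 rows had at least 10 counts in each replicate of the green, yellow and brown groups of poly(A)-depleted RNA. The numbers for rRNA-depleted RNA were 529, 434 and 425. The green stage had the most rows detected in both kinds of library, as it did among exonic antisense and intronic sense rows. Among intergenic rows and annotated genes it did so in rRNA-depleted libraries only. In poly(A)-depleted libraries these classes had the most at yellow, with 9409 against 8628 at green and 23908 against 23868. The threshold is on raw counts and so depends on depth. Poly(A)-depleted libraries held 16, 15.7 and 16.6 M counts at green, 9.54, 11.3 and 9.49 M at yellow and 20.4, 11.2 and 12.1 M at brown. Taken singly, rRNA-depleted libraries had 608, 620 and 567 rows at green, 600, 461 and 602 at yellow and 572, 547 and 546 at brown.

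Levels were low in most rows. They are given as CPM, counts relative to library size, scaled by TMM, a method that equalises the bulk of rows between libraries. Averaged over the 6 groups, 71 rows lay above 0 and up to 0.1 CPM, 315 between 0.1 and 1, 364 between 1 and 10, and 19 above 10. The median was 0.845 CPM, and 1.22 CPM per kilobase of exon. The 10 highest rows held 19.0% of the summed level of the class. Level bears on what can be tested, since 683 of the 821 rows passed the filter on low counts in the fit of all 18 libraries, 498 in the 9 poly(A)-depleted and 649 in the 9 rRNA-depleted libraries.

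Per kilobase, the highest was intronAS.XLOC_017375, a single exon of 579 bases on the minus strand of chromosome 4, 18436689 to 18437267, with a mean over groups of 93.2 CPM per kilobase. Its level in poly(A)-depleted libraries was 17.4, 22.9 and 33.5 CPM at green, 127, 93.7 and 87.5 at yellow and 12.8, 10.2 and 90 at brown. The rRNA-depleted libraries had 63.2, 56.6 and 59.5 CPM at green, 69.3, 47.1 and 52.4 at yellow and 57.0, 58.9 and 12.5 at brown. The yellow group stood clear of the green group in the poly(A)-depleted set, but the difference was not called (log2 fold change 2.11 ± 0.82 SE, adjusted p = 0.095, edgeR). Brown replicate 3 stood apart from replicates 1 and 2 in both kinds of library, upward in poly(A)-depleted and downward in rRNA-depleted RNA.

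The second was intronAS.XLOC_010779, of 840 bases on the minus strand of chromosome 3, 2672860 to 2673699, with 83.9 CPM per kilobase. Its rRNA-depleted libraries had 49.3, 43.5 and 40.1 CPM at green, 145, 126 and 101 at yellow and 132, 102 and 98.7 at brown. All yellow and all brown libraries were above the green ones. It was called higher in both later stages against green there (1.16 ± 0.33 at yellow, adjusted p = 0.0481, and 1.08 ± 0.33 at brown, adjusted p = 0.0403). Poly(A)-depleted libraries had 32.9, 30.5 and 37.4 CPM at green, 91.9, 28.2 and 35.4 at yellow and 87.0, 60.7 and 26.0 at brown, with overlap of yellow and green and of brown and green.

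Next came intronAS.XLOC_032814, a row of 3 exons and 638 bases on the minus strand of chromosome 7, 21114853 to 21116033, with 77.0 CPM per kilobase. Its yellow rRNA-depleted libraries had 192, 92.5 and 131 CPM, above the green ones at 45.7, 55.9 and 44.0 CPM, a difference that was not called (adjusted p = 0.147). Its brown rRNA-depleted libraries had 43.1, 60.5 and 14.5 CPM. The fourth, sixth and seventh by level, intronAS.XLOC_011281, intronAS.XLOC_031366 and intronAS.XLOC_027416, were all lower in poly(A)-depleted RNA and are described with that comparison. Of the 6 rows with the highest levels, intronAS.XLOC_010500 was the shortest, at 246 bases on the plus strand of chromosome 3, 37225198 to 37225443, with 46.3 CPM per kilobase.

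**Figure D2:**
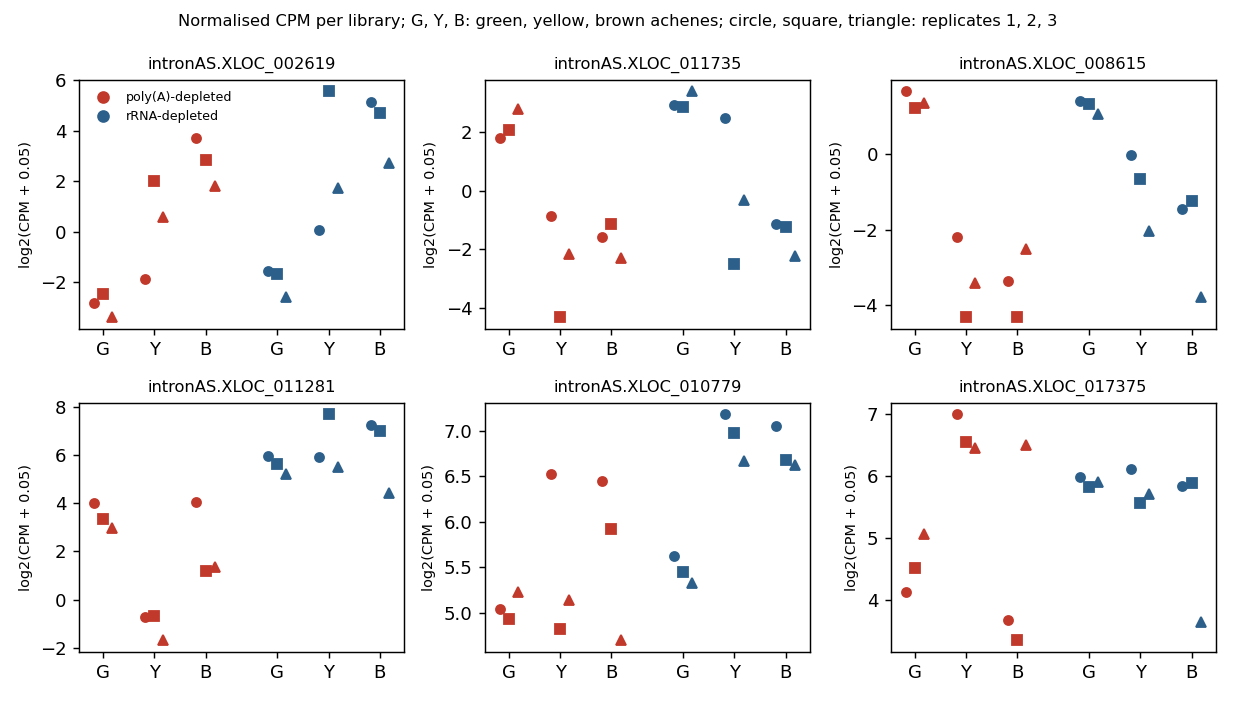
Levels of 6 intronic antisense rows in every library as log2 of CPM plus 0.05, with poly(A)-depleted libraries in red on the left and rRNA-depleted libraries in blue on the right, by stage. Row intronAS.XLOC_002619 is low at green in both kinds, intronAS.XLOC_011735 and intronAS.XLOC_008615 are high at green in both, and intronAS.XLOC_011281 is low at yellow in the poly(A)-depleted libraries.

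As a class, intronic antisense rows took a larger share of poly(A)-depleted than of rRNA-depleted libraries. The share was 0.223% ± 0.00952, 0.370% ± 0.0314 and 0.294% ± 0.130 in the poly(A)-depleted set at green, yellow and brown (SD, n = 3 each). For rRNA-depleted RNA it was 0.121% ± 0.00115, 0.0953% ± 0.0252 and 0.109% ± 0.0273. The groups of the 2 kinds did not overlap, since the lowest poly(A)-depleted library had 0.175% and the highest rRNA-depleted one 0.140%. Intergenic lncRNAs made up 5.44% to 16.8% of poly(A)-depleted and 1.49% to 5.02% of rRNA-depleted libraries, so the share of that class moved with the kind of library too. Brown poly(A)-depleted libraries ranged widely, at 0.175%, 0.274% and 0.434%, and the highest was replicate 3, one of those that stood apart.

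**Figure D3:**
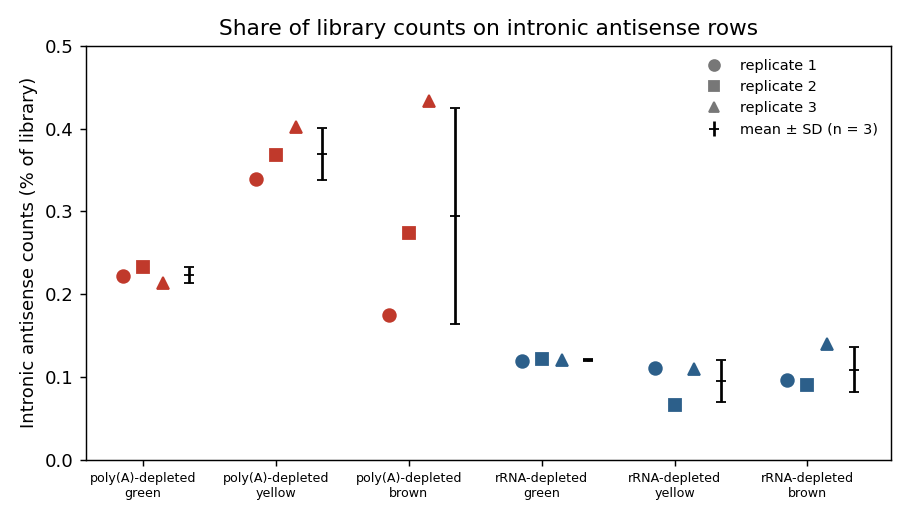
Percentage of each library's counts that fell on the 821 intronic antisense rows, by kind of library and stage, with each point a library and the mean ± SD of 3 beside it. All 9 poly(A)-depleted libraries, at 0.175% or more, lie above all 9 rRNA-depleted ones, at 0.140% or less.

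The question of the comparison of library kinds is which rows are carried by RNA without a poly(A) tail. Row by row, the differences between poly(A)-depleted and rRNA-depleted RNA went both ways. Averaged over the stages, 383 of 683 rows tested (56.1%) were called, of which 211 were higher in poly(A)-depleted RNA and 172 were lower. Of all 52101 rows tested, 77.2% were called, 43% higher and 34.1% lower. The median log2 fold change was -0.20 for intronic antisense rows and 0.40 for all rows, 1.31 for intergenic, 1.1 for intronic sense and -0.42 for exonic antisense rows. A call was an adjusted p under 0.05 by edgeR's quasi-likelihood F test with Benjamini-Hochberg adjustment over all rows. The split of calls depends on the scaling between the kinds. With TMM factors from annotated genes only it was 281 higher and 68 lower, and with library size only 370 higher and 14 lower. Of all rows, 77.1% and 77.5% were then called. Those scalings put the median of all rows at 0.999 and 1.88, and the median of intronic antisense rows lay below it by a similar amount under each scaling (-0.59 with TMM factors from all rows, -0.58 with those from genes and -0.57 with library size only). That offset depends on the filter on low counts. With a filter of 1 CPM in 3 libraries, the medians were 0.504 for the 483 intronic antisense rows tested and 0.505 for all rows. Then 211 were called higher and 117 lower, where 82.1% of all rows were called.

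The direction of the difference followed the length of the row. Of 180 rows up to 500 bases, 8 were called higher in poly(A)-depleted RNA and 63 lower, at a median log2 fold change of -0.92. Of 70 rows over 2000 bases, 56 were called higher and 4 lower, with a median of 1.03. Between these, the median was -0.45 for 263 rows of over 500 and up to 1000 bases and 0.85 for 170 rows of over 1000 and up to 2000 bases. Rows called higher had a median length of 1298 bases, rows called lower 543 and rows not called 593.5. The order of the medians from short to long was the same at green (-0.47, -0.28, 0.73 and 1.15), yellow (-1.27, -0.68, 0.90 and 1.28) and brown (-0.74, -0.36, 0.53 and 0.70), and without the 3 libraries that stood apart (-0.99, -0.56, 0.82 and 1.15).

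The sign of the short rows, unlike the order, depends on the scaling. With TMM factors from genes the medians of the 4 length bins were -0.33, 0.14, 1.44 and 1.64, and with library size only 0.53, 0.99, 2.28 and 2.5. Set against the median of all rows under the same scaling, the shortest bin was at -1.32, -1.33 and -1.35 and the longest at 0.63, 0.64 and 0.62 when scaled by TMM factors from all rows, by those from genes and by library size only. Exonic antisense rows had the same order, with medians of -1.67, -0.92, -0.30 and 0.10 in the 4 bins. Intronic sense rows had -0.29, 0.70, 1.25 and 1.21, and intergenic rows 0.57, 1.32, 1.36 and 1.30. Each library kind was prepared in its own way, and whether fragment length or preparation has a part in the relation was not tested.

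The largest fall in poly(A)-depleted libraries was that of intronAS.XLOC_011281, a single exon of 607 bases on the minus strand of chromosome 3, 9277535 to 9278141. Among poly(A)-depleted libraries it had 16.2, 10 and 7.90 CPM at green, 0.559, 0.582 and 0.260 at yellow and 16.4, 2.25 and 2.48 at brown. The rRNA-depleted libraries had 61.3, 49.8 and 37.5 CPM at green, 59.9, 208 and 44.9 at yellow and 153, 127 and 21.4 at brown. Within each stage all poly(A)-depleted libraries were below all rRNA-depleted ones, and the log2 fold change averaged over stages was -4.58 ± 0.49 (SE, adjusted p = 3.64e-07, edgeR). The next was intronAS.XLOC_027416, of 269 bases on the minus strand of chromosome 6, 14152392 to 14152660, with -3.94 ± 0.43 (adjusted p = 4.66e-07). Its poly(A)-depleted libraries had 0.124 to 1.42 CPM and its rRNA-depleted ones 8.70 to 15.7 CPM, except brown replicate 3 with 0.922 CPM. Leaving that library out gave -4.12. The sixth row by level, intronAS.XLOC_031366, of 536 bases on the minus strand of chromosome 7, 3594827 to 3595362, fell by 2.64 ± 0.40 on the log2 scale (adjusted p = 1.30e-05).

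The largest rise was that of intronAS.XLOC_032562, a single exon of 1167 bases on the minus strand of chromosome 7, 17799337 to 17800503. Its poly(A)-depleted libraries had 0.0906, 1.77 and 0.685 CPM at green, 1.12, 1.79 and 1.65 at yellow and 0.0476, 0.115 and 1.68 at brown. Its rRNA-depleted libraries had 0.112, 0.331 and 0 CPM at green, 0.0784, 0 and 0.195 at yellow and 0, 0.0311 and 0.0231 at brown. The kinds overlapped at green and not at yellow or brown. At brown the libraries held only 1, 2 and 54 raw counts in poly(A)-depleted RNA, against 0, 1 and 1 in rRNA-depleted RNA. The log2 fold change was 3.73 ± 0.83 (SE, adjusted p = 0.000493, edgeR). It was 2.86 (adjusted p = 0.00421) without poly(A)-depleted brown replicate 3, and 2.65 (adjusted p = 0.0103) without the 3 libraries that stood apart. The second, intronAS.XLOC_032736, of 1123 bases on the minus strand of chromosome 7, 20081808 to 20082930, had a log2 fold change of 3.39 ± 0.87 (adjusted p = 0.00156). It rests partly on brown replicate 3, with 3.01 CPM in poly(A)-depleted RNA against 0.0476 and 0.0577 CPM in the other replicates. The fold change was 2.08 without that library, and 1.59 (adjusted p = 0.0672) without the 3 libraries that stood apart.

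The comparison of stages asks which rows change as the fruit matures. In brown against green fruit, rRNA-depleted libraries gave the most stage calls among intronic antisense rows. Of 649 rows tested, 35 (5.39%) were called, 13 higher and 22 lower at brown, where 14.5% of all rows were called, 4.35% higher and 10.1% lower. Called changes ran between -5.02 and 6.34 on the log2 scale. The median over the class was -0.22, against 0.16 for all rows. With library size only, 4 rows were called higher and 13 lower, where 12.3% of all rows were called. With 1 fit to all 18 libraries 69 were called higher and 26 lower, where 26.2% of all rows were called. That fit moved the median of all rows to 0.39 and that of the class to 0.07. Set against the median of all rows, the class was at -0.37, -0.45 and -0.32 in these 3 settings, the reported one first. The balance of called rises and falls is thus not fixed by these data. The count was 15, 17 and 14 without green replicates 1, 2 and 3, 53 without yellow replicate 2 and 62 without the 3 libraries that stood apart, where 8.66%, 8.53%, 7.96%, 20.2% and 25.5% of all rows were called.

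The largest rise at brown was that of intronAS.XLOC_002619, a single exon of 759 bases on the minus strand of chromosome 1, 11502249 to 11503007. In rRNA-depleted libraries it had 35.1, 25.9 and 6.50 CPM at brown, against 0.292, 0.261 and 0.115 CPM at green. The log2 fold change was 6.34 ± 1.21 (SE, adjusted p = 0.00242, edgeR). The 3 brown libraries lay far above the 3 green ones, and differed among themselves more than the green ones did. Its poly(A)-depleted libraries had 12.9, 7.15 and 3.45 CPM at brown, against 0.0906, 0.133 and 0.0457 CPM at green, and the row was called higher there too (6.41 ± 1.05, adjusted p = 0.00802). Without poly(A)-depleted green replicate 3 that second fold change was 6.13 and was not called.

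The next was intronAS.XLOC_030826, a row of 2 exons and 380 bases on the plus strand of chromosome 7, 19755621 to 19756095. Its rRNA-depleted libraries held 94, 85 and 77 raw counts at brown, against 4, 4 and 0 at green. The log2 fold change was 5.19 ± 1.13 (adjusted p = 0.00611). The 3 brown libraries were close to each other, and the green ones were at or near 0.

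The largest fall was that of intronAS.XLOC_011735, a single exon of 502 bases on the minus strand of chromosome 3, 15177465 to 15177966. In rRNA-depleted libraries it had 0.408, 0.373 and 0.161 CPM at brown, against 7.51, 7.17 and 10.6 CPM at green (log2 fold change -5.02 ± 0.97, adjusted p = 0.00276). Its poly(A)-depleted libraries had 0.286, 0.404 and 0.155 CPM at brown, against 3.44, 4.16 and 6.99 CPM at green (-4.11 ± 0.88, adjusted p = 0.0263). Brown lay below green in both kinds. The poly(A)-depleted call was lost without any single green library or brown replicate 2, with fold changes between -4.35 and -3.73. The next fall, of intronAS.XLOC_023553, 852 bases on the plus strand of chromosome 6, 4960384 to 4961235, left 0.220, 0 and 0.0692 CPM at brown in rRNA-depleted libraries, against 1.64, 2.82 and 3.26 CPM at green (-4.97 ± 1.07, adjusted p = 0.00558). Its poly(A)-depleted libraries overlapped, with 0.0952 to 1.4 CPM at brown and 0.77 to 2.78 CPM at green.

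In poly(A)-depleted libraries, 18 of 498 rows tested (3.61%) were called between brown and green, 8 higher and 10 lower at brown, where 5.66% of all rows were called, 1.28% higher and 4.38% lower. The median was 0.05 for intronic antisense rows and 0.15 for all rows. Besides the rows above, the rule named intronAS.XLOC_000679 and intronAS.XLOC_008615. Row intronAS.XLOC_000679, of 1412 bases on the plus strand of chromosome 1, 9570601 to 9572012, had 5.90, 5.48 and 3.85 CPM at brown, against 2.54, 2.17 and 1.92 CPM at green (1.24 ± 0.27, adjusted p = 0.027). Its 3 brown libraries were above its 3 green ones by a small margin relative to the rises above. That call was lost without any single green library or brown replicate 2, at 1.16 to 1.34, and with library size only, at 1.43.

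Row intronAS.XLOC_008615, of 396 bases on the plus strand of chromosome 3, 11717830 to 11718225, was near 0 in poly(A)-depleted libraries of mature fruit. In rRNA-depleted libraries of yellow fruit it held 36, 14 and 8 raw counts, at 0.195 to 0.94 CPM. Its poly(A)-depleted libraries had 0.0476, 0 and 0.124 CPM at brown, against 3.13, 2.26 and 2.51 CPM at green (-5.14 ± 1.02, adjusted p = 0.0191). Its rRNA-depleted libraries had 0.314, 0.373 and 0.0231 CPM at brown, against 2.59, 2.45 and 2.04 CPM at green (-3.63 ± 0.88, adjusted p = 0.0122). The groups did not overlap in either kind. The poly(A)-depleted call was lost without any single green library or brown replicate 2, at -5.26 to -4.66. The count of 18 itself moved to 3, 3 and 0 without green replicates 1, 2 and 3, where 2.64%, 2.59% and 2.19% of all rows were called. It moved to 6 and 6 without yellow replicates 2 and 3, where 3.97% and 3.71% of all rows were called. It moved to 74, 1 and 57 without brown replicates 1, 2 and 3, where 25.9%, 2.14% and 20.6% of all rows were called. With library size only, 1 row was called higher and 3 lower, and with 1 fit to all 18 libraries 1 higher and 6 lower. Of all rows, 3.61% and 4.19% were then called.

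The brown-green differences of the 2 kinds of library rest on separate libraries, although the labels do not say whether these share RNA. Of 484 rows tested in both, 18 were called in the poly(A)-depleted set and 33 in the rRNA-depleted set. Of these, 10 were called in both, which is 55.6% of the poly(A)-depleted and 30.3% of the rRNA-depleted calls, and all 10 had the same sign. Over all 47105 rows tested in both, 2210 were called in both, which is 81.1% of the poly(A)-depleted and 31.4% of the rRNA-depleted calls, and all had the same sign. All 18 poly(A)-depleted calls had the same sign in rRNA-depleted libraries, and 32 of 33 rRNA-depleted calls had it in poly(A)-depleted libraries. Over all rows tested in both, 100% of the poly(A)-depleted and 97.9% of the rRNA-depleted calls did so. Over the 484 rows, 376 (77.7%) had the same sign. As a description across rows, Pearson's r was 0.683 and Spearman's rho 0.673. The same figures over all rows were 78.9%, 0.756 and 0.708.

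**Figure D4:**
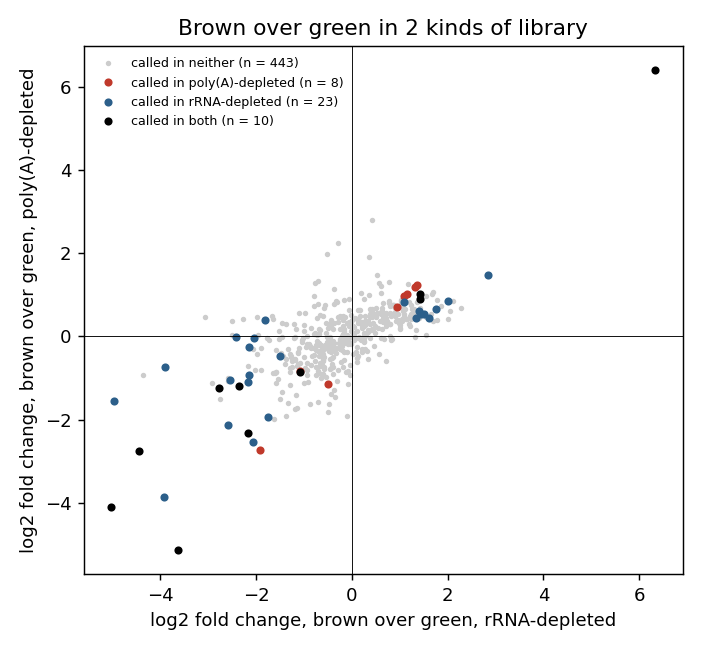
Log2 fold change of brown over green in poly(A)-depleted libraries (vertical axis) against that in rRNA-depleted libraries (horizontal axis) for the 484 intronic antisense rows tested in both. Black dots are the 10 rows called in both kinds, red and blue dots those called in 1 kind and grey dots those called in neither; all black dots lie in the lower left or upper right of the plot.

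Yellow against green gave a smaller overlap between the kinds. In poly(A)-depleted libraries 27 of 498 rows (5.42%) were called, 12 higher and 15 lower at yellow, where 10.8% of all rows were called, 2.95% higher and 7.85% lower. In rRNA-depleted libraries 8 of 649 rows (1.23%) were called, 5 higher and 3 lower, where 7.06% of all rows were called, 2.56% higher and 4.49% lower. Of 484 rows tested in both, 1 was called in both, which is 3.70% of the 27 poly(A)-depleted and 14.3% of the 7 rRNA-depleted calls. The sign was the same for 23 of the 27 and 6 of the 7, and for 317 (65.5%) of the 484, with Pearson's r 0.406 and Spearman's rho 0.421. Over all rows tested in both, 1287 were called in both, which is 24.7% of the poly(A)-depleted and 37.5% of the rRNA-depleted calls. Their sign was the same for 84% of the poly(A)-depleted and 86.1% of the rRNA-depleted calls. It was the same for 57.3% of all rows tested in both, with r 0.393 and rho 0.248. These comparisons share their green libraries with those of brown and green, so the 2 sets of results are not independent.

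The row called in both was intronAS.XLOC_002619. In poly(A)-depleted libraries it had 0.224, 3.99 and 1.43 CPM at yellow, against 0.0906, 0.133 and 0.0457 CPM at green (4.38 ± 1.06, adjusted p = 0.0351). In rRNA-depleted libraries it had 0.993, 47.2 and 3.29 CPM at yellow, against 0.292, 0.261 and 0.115 CPM at green (5.91 ± 1.19, adjusted p = 0.00596). All yellow libraries were above all green ones, and replicate 2 was the highest yellow library in both kinds. Without yellow replicate 2 the rRNA-depleted fold change was 3.04 and remained called. The poly(A)-depleted call was lost without any single green library or without yellow replicate 2 or 3, with fold changes between 3.26 and 4.74.

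Among the other rRNA-depleted calls, intronAS.XLOC_030826 held 18, 155 and 27 raw counts at yellow, against 4, 4 and 0 at green (5.14 ± 1.13, adjusted p = 0.0107), and 3.11 with an adjusted p of 0.0545 without yellow replicate 2. The largest falls were of longer rows. Row intronAS.XLOC_008069, of 2515 bases on the plus strand of chromosome 3, 4178408 to 4180922, had 2.43, 0.166 and 2.07 CPM at yellow, against 5.44, 7.42 and 12.9 CPM at green (-2.78 ± 0.76, adjusted p = 0.0379). Row intronAS.XLOC_016174, of 1598 bases on the minus strand of chromosome 4, 2156141 to 2157738, had 0.836, 0.998 and 1.56 CPM at yellow, against 6.88, 4.04 and 6.95 CPM at green (-2.72 ± 0.71, adjusted p = 0.0313). In both rows every yellow library was below every green one. The first fall was not called without green replicate 1, 2 or 3, yellow replicate 2 or 3, or brown replicate 1 or 2 (-3.04 to -2.18). The second was not called without green replicate 1 or 3, any yellow replicate, or brown replicate 1 (-2.96 to -2.53). The count of 8 was 3, 4 and 3 without green replicates 1, 2 and 3, where 4.29%, 3.94% and 3.75% of all rows were called. It was 13 and 4 without yellow replicates 1 and 2 (8.96% and 5.71% of all rows), and 5 and 13 without brown replicates 1 and 3 (6.27% and 8.75%). With TMM over genes 5 were called higher and 0 lower (7.01% of all rows called), and with library size only 3 and 0 (5.57%). The falls are thus not fixed under those scalings.

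In poly(A)-depleted libraries the called changes at yellow ran between -5.17 and 4.38 on the log2 scale. The rule named intronAS.XLOC_008615, with 0.168, 0 and 0.0434 CPM at yellow, against 3.13, 2.26 and 2.51 CPM at green (-5.17 ± 1.04, adjusted p = 0.0199). It also named intronAS.XLOC_011281, with the values given above (-4.54 ± 0.88, adjusted p = 0.017), whose rRNA-depleted libraries overlapped between yellow and green. The other named rise, of intronAS.XLOC_010173, a single exon of 3699 bases on the plus strand of chromosome 3, 32935269 to 32938967, was 1.43 ± 0.39 (adjusted p = 0.0453). It had 9.95, 9.31 and 7.16 CPM at yellow, against 3.44, 3.41 and 3.29 CPM at green, with tight replicates in both groups. Its rRNA-depleted libraries overlapped, with 0 to 2.34 CPM at yellow and 0.78 to 1.26 CPM at green. Rows intronAS.XLOC_010500 (-1.99 ± 0.53, adjusted p = 0.0449) and intronAS.XLOC_031366 (-2.73 ± 0.74, adjusted p = 0.0468), of the 6 with the highest levels, were also called lower.

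These poly(A)-depleted calls at yellow depend on single libraries more than the others. No row was called without green replicate 3, and 1 and 3 without green replicates 1 and 2, where 1.85%, 2.4% and 2.69% of all rows were called. Without yellow replicates 1, 2 and 3 the count was 15, 1 and 1, where 5.93%, 0.95% and 1.3% of all rows were called. Row intronAS.XLOC_008615 was not called without any single green library or yellow replicate 2 or 3 (-5.27 to -4.56). Row intronAS.XLOC_011281 was not called without green replicate 1 or 3 or yellow replicate 2 or 3 (-4.74 to -4.20). Row intronAS.XLOC_010173 was not called without any single green or yellow library or brown replicate 2 (1.40 to 1.54). The count of calls was 124 and 170 without brown replicates 1 and 3, which share in the estimate of the spread, and 38.1% and 41.6% of all rows were then called. The split of 12 higher and 15 lower became 29 and 12 with TMM over genes and 8 and 15 with median-of-ratios factors. It became 3 and 2 with library size only and 1 and 32 with 1 fit to all 18 libraries. Of all rows, 15.5%, 10.1%, 4.51% and 10.6% were called in these settings.

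Brown against yellow gave no call in either kind of library. In poly(A)-depleted libraries 20 of 498 rows had an unadjusted p under 0.05 by edgeR, as did 4436 of all 48201 rows. There edgeR called 0% of all rows and DESeq2 called 0 intronic antisense rows. In rRNA-depleted libraries 41 of 649 rows had such a p, as did 6498 of all 49283 rows. There edgeR called 0% of all rows, while DESeq2 called 5 intronic antisense rows and 2.6% of all rows. Without poly(A)-depleted brown replicate 3, edgeR called 121 intronic antisense rows in poly(A)-depleted libraries. Without rRNA-depleted yellow replicate 2 it called 6 in rRNA-depleted libraries. Of all rows, 33.4% and 4.49% were then called. Without all 3 libraries that stood apart the counts were 121 and 13, where 33.4% and 10.3% of all rows were called. Among rows with a level of at least 0.5 CPM in some stage, the highest mean was at green in 219, at yellow in 175 and at brown in 124 of 518 rows in poly(A)-depleted libraries, and in 213, 146 and 207 of 566 rows in rRNA-depleted libraries.

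Whether the stage differences differ between the kinds was tested by an interaction with 2 degrees of freedom, in a fit that took no libraries as pairs. None of the 683 rows was called by edgeR and DESeq2 called 3, where 0.0845% of all rows were called by edgeR and 5.21% by DESeq2. An unadjusted p under 0.05 by edgeR was found for 41 of the 683 and for 9869 of all 52101 rows. The lowest adjusted p was that of intronAS.XLOC_011281, 0.0817 (F = 12.9), whose yellow libraries were low in poly(A)-depleted RNA only. Without poly(A)-depleted brown replicates 1 and 3 and rRNA-depleted brown replicate 3, left out 1 at a time, 2, 11 and 1 rows were called, and 31 without the 3 libraries that stood apart, where 2.5%, 11.3%, 0.516% and 18.7% of all rows were called. The adjusted p of intronAS.XLOC_011281 was then 0.00266. The rule also named intronAS.XLOC_006827 (515 bases on the minus strand of chromosome 2, 15742515 to 15743029), intronAS.XLOC_021386 (1732 bases on the minus strand of chromosome 5, 7041490 to 7043221) and intronAS.XLOC_006617 (336 bases on the minus strand of chromosome 2, 13009442 to 13009777), with adjusted p of 0.13, 0.142 and 0.145. All 3 had their lowest group mean at poly(A)-depleted yellow. A replicate block within stage, chosen after seeing the data, called 20 rows, these 3 and intronAS.XLOC_011281 among them. Of all rows 17.4% were then called. The labels do not pair the libraries, so the result without a block depends on that choice. In intronAS.XLOC_006827 the poly(A)-depleted libraries held 1.13, 1.46 and 2.24 CPM at green, 0.0559, 0.0415 and 0.477 at yellow and 1.52, 0.577 and 1.34 at brown.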

How the data were processed

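Strand-labelled paired-end RNA-seq of 18 fruit libraries was analysed. The authors deposited raw counts per row and library as whole numbers without normalization, as the values show, per the file headers. They also deposited exon positions of assembled loci, whose source column names Cufflinks, per the file headers. Tools listed in the submitters' processing notes, without roles, are TopHat2 2.1.2, STAR 2.5.4b and Trim Galore 0.4.2. The genome build, the counting program and its strand setting are not stated in the sources used here, so a row's reads cannot be told apart from those of a gene on its other strand. No sequences are printed.

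All rows were tested with edgeR 4.0.16 (limma 3.58.1, R 4.3.3) by TMM scaling, filterByExpr by group and the quasi-likelihood F test, with Benjamini-Hochberg adjustment over all rows tested. Separate fits used the 9 poly(A)-depleted, the 9 rRNA-depleted and all 18 libraries. A call was an adjusted p under 0.05. Standard errors come from the F statistic. Only the test of brown against green in rRNA-depleted libraries was checked on simulated counts, in which no library was made to stand apart. The other comparisons were not checked in this way. With 3 replicates per group, p-values measure the spread between pooled fruit samples. Members, lists and the rule for named rows were chosen with earlier results of these data known. The rule took, per pairwise comparison, the 2 largest rises and 2 largest falls among called rows whose replicates did not overlap (in at least 2 of 3 stages for the library kinds) and whose higher group averaged at least 0.5 CPM. It added the 4 lowest adjusted p of the interaction, the 6 highest rows per kilobase, the longest row, the one with most exons, and loci listed under 2 classes with at least 10 counts in every library. Names outside it were chosen after values were seen, namely intronAS.XLOC_032620 and intronAS.XLOC_020971 among the listings under 2 classes, and the 2 intronic sense partners.

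Alternatives were DESeq2 1.42.0, median-of-ratios factors, TMM factors from annotated genes, library size only, a filter of 1 CPM in 3 libraries or no filter, a threshold of 0.01 on the adjusted p, a minimum log2 fold change of 1 in either direction, a replicate block, 1 fit to all 18 libraries and leaving out each library. A block within stage, fits without the 3 libraries that stood apart, and the length bins by stage and by scaling were chosen after seeing the data.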

Additional observations from a re-analysis of the deposited data

Results flagged for a closer look

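The rows below stood out because all replicates moved one way between stages in poly(A)-depleted libraries and all moved the other way in rRNA-depleted libraries. In intronAS.XLOC_021386, yellow poly(A)-depleted libraries had 1.12, 0.956 and 0.694 CPM, against 3.03, 1.99 and 3.38 CPM at green, while yellow rRNA-depleted libraries had 4.21, 6.53 and 4.59 CPM, against 3.96, 2.96 and 2.84 CPM at green. The same row went the opposite way between brown and yellow, with 2.19, 1.38 and 1.24 CPM at brown in poly(A)-depleted and 3.52, 2.83 and 2.21 CPM at brown in rRNA-depleted libraries, against the yellow values above. The test of the difference, the interaction of stage and library kind over all 3 stages, gave an adjusted p of 0.142 for it, over the threshold in the fit without a block.

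In intronAS.XLOC_006617, yellow poly(A)-depleted libraries had 0.838, 0.208 and 0.174 CPM, against 1.99, 1.33 and 1.51 CPM at green, while yellow rRNA-depleted libraries had 6.82, 8.94 and 7.22 CPM, against 3.17, 3.62 and 3.85 CPM at green (interaction adjusted p = 0.145, edgeR). In intronAS.XLOC_010500, yellow poly(A)-depleted libraries had 1.90, 1.45 and 1.56 CPM, against 7.84, 6.02 and 6.44 CPM at green, while yellow rRNA-depleted libraries had 27.8, 25.1 and 18.2 CPM, against 15.3, 17.4 and 12.8 CPM at green (interaction adjusted p = 0.151, edgeR). Such opposite separation between yellow and green was found in 13 of 683 intronic antisense rows (1.90%) and in 8.34% of all rows tested. Between brown and yellow it was found in 5 (0.732%) and 0.223% of all rows, and between brown and green in 2 (0.293%) and 0.138%.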

How the results depend on the processing

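The count of rows that differ between the kinds of library, 383, stayed within 1.5 times under all settings tried, and was 333 to 420 when 1 library was left out. Of all rows, 72.8% and 76.5% were called in the fits that gave this lowest and highest count. The stage counts did not. For yellow and brown against green in poly(A)-depleted, then in rRNA-depleted libraries, 27, 18, 8 and 35 rows were reported. At an adjusted p under 0.01 the counts were 0, 1, 2 and 10 (1.5%, 1.94%, 3.65% and 7.45% of all rows). With DESeq2 they were 100, 48, 18 and 62 (29%, 16.1%, 9.66% and 19.3%), and with library size only 5, 4, 3 and 17 (4.51%, 3.61%, 5.57% and 12.3%). Without the 3 libraries that stood apart they were 170, 57, 14 and 62 (41.6%, 20.6%, 10.5% and 25.5%). With TMM factors from genes the yellow-green counts were 41 (poly(A)-depleted) and 5 (rRNA-depleted). With 1 fit to all 18 libraries the brown-green counts were 7 and 95. Brown against yellow, with 0 calls in both kinds, gave 121 in poly(A)-depleted RNA without the 3 libraries (33.4% of all rows). In rRNA-depleted RNA it gave 5 (DESeq2), 1 (1 fit to all 18) and 13 (without the 3). Of all rows, 2.6%, 0.747% and 10.3% were then called. The interaction, with 0 calls, gave 3 with DESeq2 and 31 without the 3 libraries. Leaving out 1 library gave 0 to 170, 0 to 121 and 0 to 74 calls for yellow-green, brown-yellow and brown-green in poly(A)-depleted libraries, 3 to 13, 0 to 6 and 14 to 53 in rRNA-depleted libraries, and 0 to 11 for the interaction. The cause of these changes was not tested, apart from the stricter threshold. No named fold change changed sign under any of these settings.

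Equal replicate numbers were not taken as pairs. Libraries of the same stage and number in the 2 kinds deviated together with correlations of -0.073 to 0.461, over 0.1 in 8 of 9 pairs, against -0.445 to 0.138 for other numbers, and 16 of 18 libraries correlated best with their own number. Between stages, pairs over 0.1 numbered 5 of 9 in the poly(A)-depleted set and 2 of 9 in the rRNA-depleted set. With a replicate block the counts for yellow-green, brown-yellow and brown-green were 37, 0 and 10 in the poly(A)-depleted set (14.5%, 0% and 5.77% of all rows). They were 10, 0 and 37 in the rRNA-depleted set (7.12%, 0% and 14.7%). The library kinds gave 381 and the interaction 1 (76.8% and 0.706%). A block within stage gave 361 and 20 (76.7% and 17.4% of all rows), and the 20 included the 4 rows named for the interaction. Depth limits the class, since 138 of 821 rows were too low to be tested in the fit of 18 libraries and 323 in the poly(A)-depleted fit.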
